A study of Mus musculus with 4 samples.

Results

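NHRI-HN1 was set against M1-2, the cell line it was derived from, to describe which functions were gained and which were lost between parent and daughter. M1-2 was cultured from a tongue tumor of a C57BL/6 mouse that drank arecoline, the main alkaloid of areca nut, together with 4-NQO, a carcinogen that damages DNA. NHRI-HN1 came out of M1-2 by sphere culture, a selection for cells that grow as floating clusters in a defined medium with epidermal growth factor. NHRI-HN2 came in the same way from M2-3, a line of another such tumor, and both are used here only beside the main pair. All 4 lines were grown on dishes in DMEM with fetal bovine serum before RNA was taken, and neither the age of the mice nor the clonality of the lines is given in the sources used here.

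RNA of each line was hybridised to 1 Affymetrix Mouse Clariom S array, a chip with 1 probe set for most genes. With 1 array a line no difference has a replicate check, so none carries an error or a test, and every statement below is about these 2 arrays. Genes were chosen by their deposited values, which were taken as log2 levels: a gene was counted at 8 or more in at least 1 of the 2 lines, and was called gained or lost in NHRI-HN1 when the difference reached 2 units. A gene low in 1 line was counted only where it was high in the other. The share of a list gained or lost therefore depends in part on this filter. Of 19505 genes, 7032 were counted. Of these, 647 were gained, which is 9.20% of the counted genes, and 610 were lost, which is 8.67%. The median difference over all counted genes was -0.04, and 33.4% of them lay within 0.5 units of 0. No detection call came with the values, the lower quartile of both arrays was near 3, and a step of 1 unit cannot be read as a fixed fold of RNA, because the top of the scale (19.71 in NHRI-HN1, 19.77 in M1-2) lies above what a scanner usually records on a plain log2 scale.

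The epithelium of the tongue is a stratified squamous epithelium. Its basal cells carry keratins 5 and 14, desmosomes, hemidesmosomes and E-cadherin, and are specified by a small set of transcription factors that includes Trp63, Sox2, Pitx1 and Pax9. The tongue beneath it is skeletal muscle. Muscle cells are specified by the factors Myf5, Myod1 and Myog, which switch on acetylcholine receptors, fusion proteins and the sarcomere, while smooth muscle and myofibroblasts use a separate contractile set driven by Srf and its partners.

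Against the label of an oral cancer cell line, the keratinocyte markers were checked first. Of 15 such markers, 0 stood at 8 or more in NHRI-HN1 and 8 did in M1-2, while all 15 did in NHRI-HN2 and in M2-3. M1-2 was therefore a partial match before the selection: its Krt5 was at 4.68, its Trp63 at 6.66 and its Epcam at 3.15. In NHRI-HN1 these 3 stood at 3.09, 4.78 and 2.84. Of 15 skeletal muscle markers, 12 were at 8 or more in NHRI-HN1 and 0 in M1-2, NHRI-HN2 or M2-3. Of 13 measured fibroblast markers, 7 were at 8 or more in NHRI-HN1 and 6 in M1-2. Endothelial markers stayed between 1.93 and 4.16 in both lines, and of 7 measured leukocyte markers only Cd14 reached 8, at 5.49 in NHRI-HN1 and 8.13 in M1-2. In bulk RNA, a smaller share of cells of a type and less RNA per cell cannot be told apart, so the part of a mixture of cells in these differences was not tested.

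**Figure D1:**
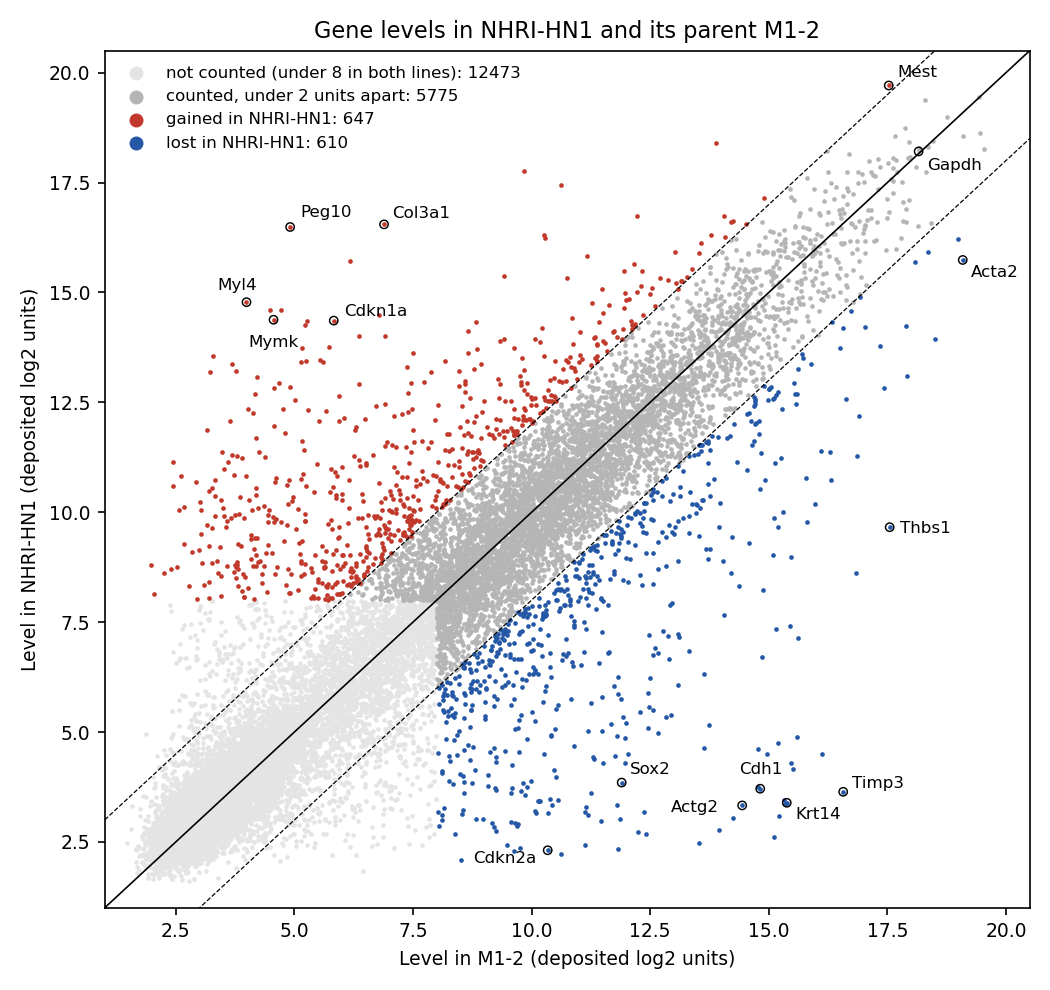
Level of each of 19505 genes in NHRI-HN1 (vertical axis) and M1-2 (horizontal axis), in deposited log2 units, 1 array a line. The solid line marks equal levels and the dashed lines a difference of 2 units. Most counted genes lie between the dashed lines, 647 lie above and 610 below, and the named genes reach differences of 11.58 (Peg10) and -12.93 (Timp3).

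Of the 647 gained genes, 232 were at 8 or more in both lines, 415 were under 8 in M1-2 and 144 of these under 5. Of the 610 lost genes, 240 were at 8 or more in both lines, 370 were under 8 in NHRI-HN1 and 120 of these under 5. By size, 241 gained and 211 lost genes were 4 or more units apart, 99 and 102 were 6 or more, and 29 and 37 were 8 or more. The limit of 2 units cut through a continuous range: Gstm1, at 15.08 in NHRI-HN1 and 13.08 in M1-2, was just inside it, and Glrb, at 8.42 in NHRI-HN1 and 6.43 in M1-2, just outside. On the other side, Itga6, at 14.33 in NHRI-HN1 and 16.33 in M1-2, was just inside, and Cd9, at 14.79 in NHRI-HN1 and 16.78 in M1-2, just outside.

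Skeletal muscle genes were gained in most of their counted members. A list of myogenic regulators and fusion genes had 33 measured members, of which 22 were counted. Of these 22, 15 were gained and 0 lost, with a median difference of 4.26. A list of sarcomere and contraction genes had 55 measured members, of which 23 were counted. Of these 23, 19 were gained and 1 lost, with a median of 5.02. The uncounted members of both lists were under 8 in both lines. Members low in M1-2 were counted only where they were high in NHRI-HN1, so these shares partly follow from the filter. The levels in the other tumor's lines were low for both lists, with medians of 4.37 and 4.35 in NHRI-HN2 and 3.46 and 4.06 in M2-3.

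Among the regulators, Myf5, which commits cells to the muscle lineage, stood at 11.38 in NHRI-HN1 and 4.26 in M1-2. Myog, which starts terminal differentiation, stood at 12.25 in NHRI-HN1 and 4.12 in M1-2. Myod1, another factor of this family, was not counted, at 3.32 in NHRI-HN1 and 2.67 in M1-2. So the late factor and the early factor were both high in NHRI-HN1 with Myod1 near the dimmest values of the array. Upstream of them, Pax3 was at 9.86 in NHRI-HN1 and 6.34 in M1-2, and Six4 at 11.42 in NHRI-HN1 and 5.21 in M1-2. Eya1, a partner of Six4, was high in both, at 13.09 in NHRI-HN1 and 13.51 in M1-2.

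Mymk, the membrane protein that drives myoblasts to fuse, was among the largest gains of all, at 14.38 in NHRI-HN1 and 4.56 in M1-2, with 3.82 in NHRI-HN2 and 3.28 in M2-3. The muscle acetylcholine receptor was gained as a set: Chrna1 by 7.49, Chrnd by 8.72, the embryonic subunit Chrng by 6.21 and Chrnb1 by 2.94. Musk, the kinase that clusters this receptor, was at 8.77 in NHRI-HN1 and 4.13 in M1-2. Cell surface proteins of muscle precursors went the same way, with Cdh15 at 9.64 in NHRI-HN1 and 3.26 in M1-2 and Megf10 at 12.30 in NHRI-HN1 and 5.67 in M1-2. Cdon and Boc, a pair of related co-receptors, went apart: Cdon was gained by 5.51, while Boc differed by -1.85 and stood at 6.19 in NHRI-HN1 and 8.04 in M1-2.

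In the sarcomere list the embryonic light chain Myl4 had the largest gain, with 14.78 in NHRI-HN1 and 3.99 in M1-2. Myl1 was at 13.18 in NHRI-HN1 and 3.22 in M1-2, Mylpf at 13.74 and 5.17, and Des, the intermediate filament of muscle, at 14.35 and 5.26, in the same order of lines. Forms of slow, fast and embryonic muscle were all among the gains: Tnni1, the slow troponin I, by 8.15, Tnnt3, the fast troponin T, by 4.61 and Myh3, the embryonic myosin heavy chain, by 7.49. Acta1, skeletal actin, was gained by 7.48. Tropomyosins, which all cells use, did not follow. Tpm2 stood at 14.27 in NHRI-HN1 and 14.25 in M1-2, Tpm3 differed by -0.40, and Tpm1 was the 1 lost member, at 16.22 in NHRI-HN1 and 18.98 in M1-2.

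Some genes that link muscle to its basement membrane were gained. Lama2, the laminin chain of muscle, was at 11.31 in NHRI-HN1 and 3.69 in M1-2, and Itga7, its integrin, at 11.29 in NHRI-HN1 and 6.26 in M1-2. Parvb, an adaptor of integrins, was at 9.50 in NHRI-HN1 and 3.03 in M1-2. Other laminin receptor chains were lower: Itgb4 was at 5.15 in NHRI-HN1 and 13.74 in M1-2, Itga6 was just past the limit and Itga3 differed by -2.01. Itgb1 differed by -1.18. The lists of basement membrane and of integrins had members in both directions: 3 gained and 5 lost of 16 counted, and 7 gained and 8 lost of 31.

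The promoters of the gained muscle genes are shown because they move together. Muscle factors of the Myf5 family bind E-boxes, and the letters CAGCTG were searched on both strands of RefSeq promoters of the build GRCm38.p6, from 250 bases before to 50 after the start. At least 1 promoter held them for 9 of the 16 gained sarcomere genes that have a promoter in the table (56.2%) and for 3 of 10 gained regulators, beside 18.3% of all 27025 genes with a promoter. A match is a description of the letters and no evidence of binding. The stretches below run 5′ to 3′ on the gene's own strand and end before the start, with the letters in capitals. The stretch of Des is chr1:75360231-75360286 (plus strand) and its match ends 30 bases before the start. That of Mylpf is chr7:127211532-127211587 (plus strand) with 45 bases to the start, that of Chrna1 is chr2:73580352-73580407 (minus strand) with 38, and that of Chrng, with 2 matches, is chr1:87205654-87205709 (plus strand).
Des: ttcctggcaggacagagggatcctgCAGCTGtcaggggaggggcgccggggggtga
Mylpf: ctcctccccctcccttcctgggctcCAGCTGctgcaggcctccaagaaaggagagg
Chrna1: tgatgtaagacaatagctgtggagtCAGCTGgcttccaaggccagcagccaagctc
Chrng: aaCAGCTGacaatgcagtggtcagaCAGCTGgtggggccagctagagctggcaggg

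Smooth muscle genes went the opposite way. Of 14 counted members of a list of smooth muscle and myofibroblast contraction, 0 were gained, 7 were lost and all 14 were lower in NHRI-HN1, with a median of -2.15. Cnn1 (calponin) was at 3.76 in NHRI-HN1 and 14.77 in M1-2, and Actg2 (enteric actin) at 3.33 in NHRI-HN1 and 14.44 in M1-2. Tagln (transgelin) was at 8.62 in NHRI-HN1 and 16.83 in M1-2. Acta2, the actin of myofibroblasts, stayed high in both, at 15.74 in NHRI-HN1 and 19.09 in M1-2. Srf, their shared transcription factor, differed by -1.78. Of its partners, Mrtfa was lost, at 5.22 in NHRI-HN1 and 8.20 in M1-2, and Mrtfb differed by -0.45. M1-2 was the high line of the 4: 6 of the 7 lost members stood 2 or more units above both NHRI-HN2 and M2-3 there, and Cnn1 was at 3.46 in NHRI-HN2 and 3.88 in M2-3.

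Interferon-induced antiviral genes were the second large gain. Interferons act through cell surface receptors and Jak kinases, which switch on a large set of genes that block viral entry, translation and replication. Of 57 measured effector genes, 41 were counted. Of these, 30 were gained and 0 lost, with a median of 4.58, and 39 of the 41 were higher in NHRI-HN1. Ifit3, which binds foreign RNA with its relatives, was at 14.60 in NHRI-HN1 and 4.72 in M1-2. Ifit1 was at 12.70 in NHRI-HN1 and 4.16 in M1-2. Isg15, a ubiquitin-like modifier, was at 10.23 in NHRI-HN1 and 3.01 in M1-2, and Usp18, which removes it from proteins, at 12.95 in NHRI-HN1 and 4.68 in M1-2. Restriction factors of the membrane were above 10 in both lines: Ifitm3 was at 18.40 in NHRI-HN1 and 13.88 in M1-2, and Bst2 at 16.25 in NHRI-HN1 and 10.29 in M1-2. The 2 members that were lower, Lgals9 by 0.83 and Ifi27 by 0.61, did not reach the limit. Ifit3 and Ifit3b, with a difference of 9.68, are close copies, so their probe sets may read each other's RNA.

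In the list of interferon signaling and nucleic acid sensing, 7 of 26 counted genes were gained and 1 lost, and the median was -0.09. Irf7, the factor that amplifies interferon production, was at 13.21 in NHRI-HN1 and 3.77 in M1-2. Irf9 was at 10.40 in NHRI-HN1 and 5.88 in M1-2, Stat2 at 11.81 and 8.65, and Sting1, the adaptor of cytosolic DNA sensing, at 11.95 and 6.30, in the same order of lines. These 4 are known to be induced by interferon in many cells. Among receptors and kinases, Ifnar1 differed by 0.46, Ifnar2 by -0.28, Jak1 by -0.26 and Tbk1 by -0.65. Irf1, which responds mainly to interferon-gamma, was lower by 1.87, at 10.97 in NHRI-HN1 and 12.84 in M1-2, and Samhd1, a restriction factor, by 1.38.

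Antigen presentation, which interferons also induce, did not follow the effectors. Of 17 counted members of the MHC class I list, 0 were gained, 3 were lost and 15 were lower in NHRI-HN1, with a median of -1.35. H2-D1 was at 11.11 in NHRI-HN1 and 13.71 in M1-2, H2-K1 at 13.26 in NHRI-HN1 and 15.62 in M1-2, and Psmb8, an immunoproteasome subunit, at 9.13 in NHRI-HN1 and 11.23 in M1-2. B2m, the shared light chain, was at 18.57 in NHRI-HN1 and 19.10 in M1-2. In all of these M1-2 was the highest line of the 4, and NHRI-HN1 stood above both NHRI-HN2 (10.76 for H2-D1, 12.52 for H2-K1) and M2-3 (7.32 and 9.66).

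The interferon response element, to which the Stat and Irf factors bind, was searched as GAAANNGAAA on both strands. It was present in at least 1 promoter of 15 of the 25 gained effectors that have one in the table, beside 3.99% of all genes. Promoters of 2 large gains are shown, and in both the match lies on the opposite strand, so the capitals read as its reverse complement. The stretch of Ifit3 is chr19:34583382-34583441 and that of Ifit1 chr19:34640779-34640838, both on the plus strand, with 112 and 75 bases between the last match and the start. The stretch printed for Ifit3 occurs with the same letters at Ifit3b.
Ifit3: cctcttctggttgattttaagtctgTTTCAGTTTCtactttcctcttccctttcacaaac
Ifit1: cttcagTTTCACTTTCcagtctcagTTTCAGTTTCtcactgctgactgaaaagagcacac

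**Figure D2:**
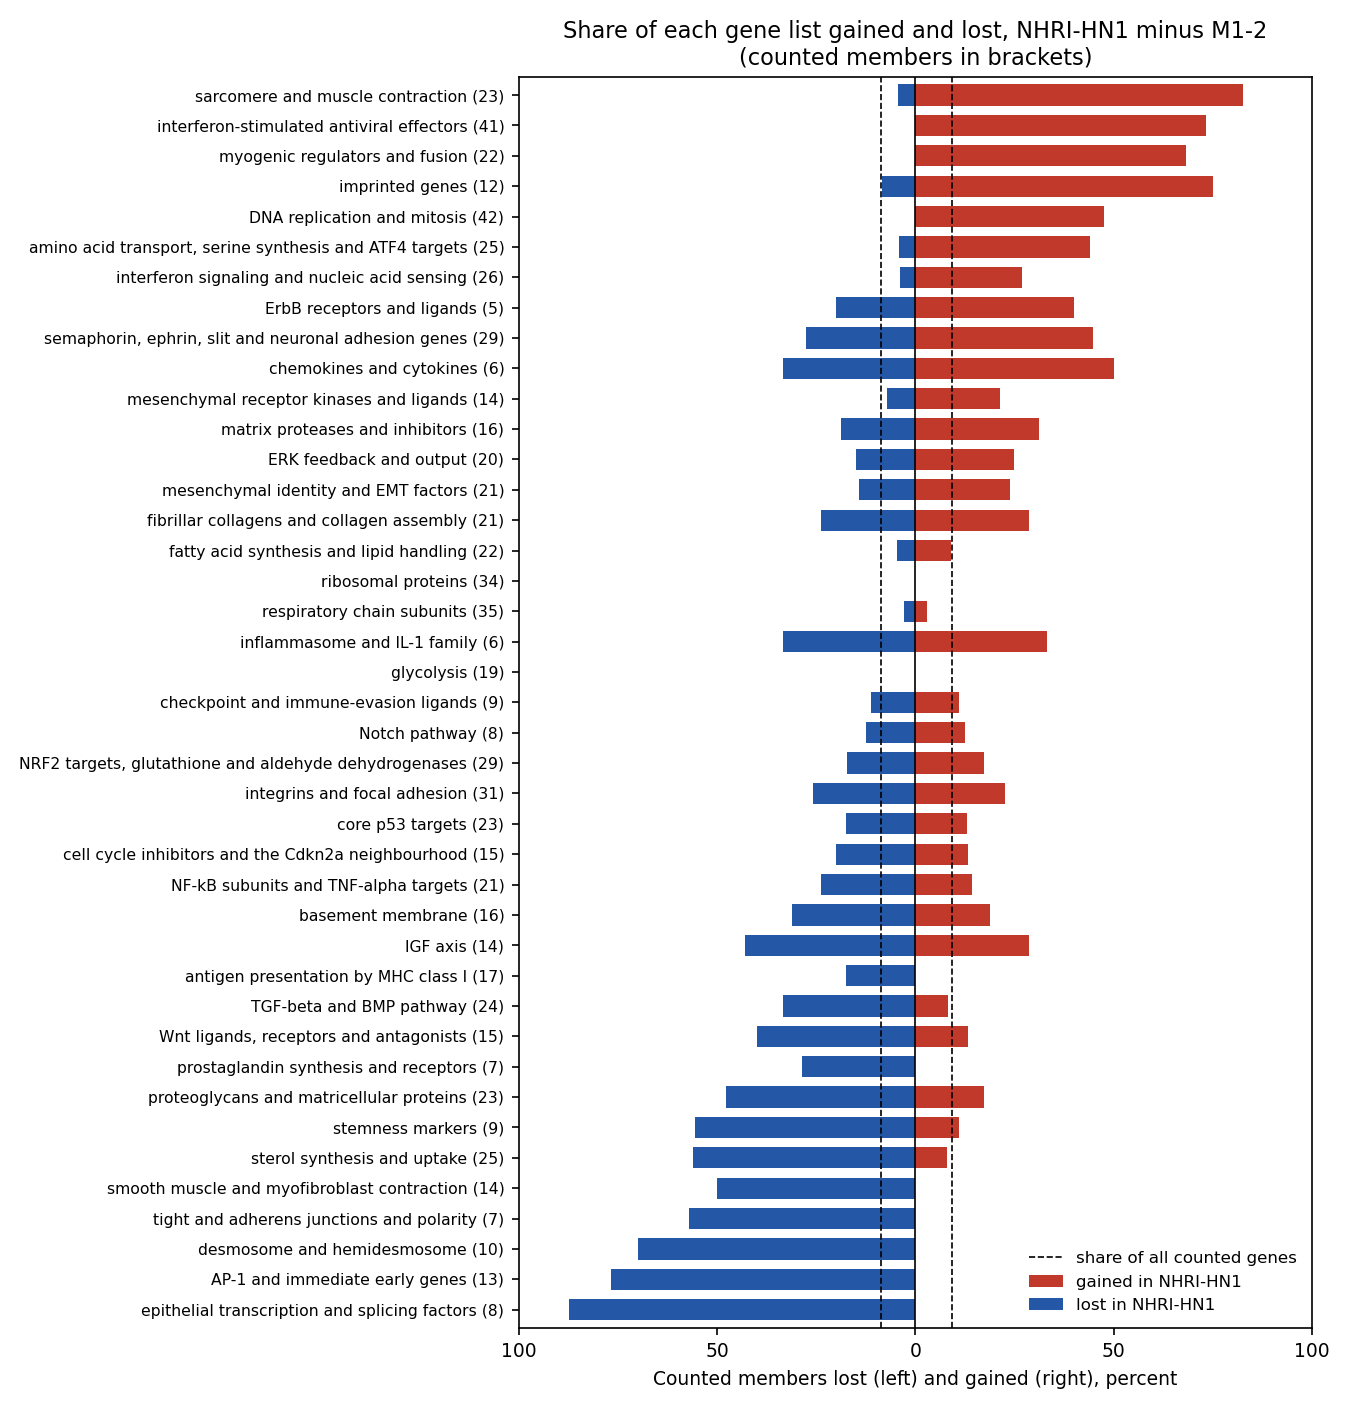
Percent of the counted members of each gene list that were gained (right, red) or lost (left, blue) in NHRI-HN1 against M1-2, for lists with 5 or more counted members, whose number stands in brackets. The dashed lines mark the shares of all counted genes, 9.20% and 8.67%. Muscle, interferon effector and imprinted lists reach furthest to the right, epithelial factor, immediate early and desmosome lists furthest to the left, and glycolysis and ribosomal proteins show no bar.

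Imprinted genes are expressed from only 1 parental copy, and many of them serve fetal growth. Of 28 measured, 12 were counted, and of these 9 were gained and 1 lost, with a median of 4.12. Peg10, a gene derived from a retrotransposon and needed in the placenta, had the largest gain of all genes, with 16.49 in NHRI-HN1 and 4.91 in M1-2. Its neighbour Sgce, a sarcoglycan, was at 11.14 in NHRI-HN1 and 3.61 in M1-2. Peg3, a zinc finger gene, was at 14.60 in NHRI-HN1 and 4.49 in M1-2, and its neighbour Usp29 at 8.81 in NHRI-HN1 and 1.97 in M1-2. Thus both members of each of these neighbouring pairs were gained. Ndn was at 11.15 in NHRI-HN1 and 2.45 in M1-2. Mest, at 19.71 in NHRI-HN1 and 17.53 in M1-2, was the highest value of the NHRI-HN1 array, and stood at 7.61 in NHRI-HN2 and 3.68 in M2-3. The lost member was Grb10, an adaptor that restrains growth factor receptors, at 2.98 in NHRI-HN1 and 11.46 in M1-2.

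The insulin-like growth factor axis, which overlaps the imprinted list, was rearranged in both directions, with 4 gained and 6 lost of 14 counted members. The fetal ligand Igf2 was at 16.75 in NHRI-HN1 and 12.23 in M1-2, while Igf1 was at 7.89 in NHRI-HN1 and 12.91 in M1-2. Igf2r, which clears Igf2, was gained by 3.58 and the signaling receptor Igf1r differed by 1.26. The binding proteins split: Igfbp5 was gained, at 17.76 in NHRI-HN1 and 9.85 in M1-2, and so was Igfbp3, by 7.53. Igfbp2 was lost, at 7.14 in NHRI-HN1 and 15.61 in M1-2, as were Igfbp4 by 4.73, Igfbp7 by 4.57 and Igfbp6 by 3.87. Pappa, the protease that cuts Igfbp4, was at 3.43 in NHRI-HN1 and 10.16 in M1-2.

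Genes of DNA replication and mitosis were higher in NHRI-HN1 almost throughout. Of 42 counted members, 20 were gained, 0 were lost and 41 were higher, with a median of 1.96. Mcm3 and Mcm6, subunits of the replicative helicase, were at 10.33 and 14.10 in NHRI-HN1 and at 6.91 and 11.03 in M1-2. Kif11, the motor that separates spindle poles, was at 12.96 in NHRI-HN1 and 9.78 in M1-2, and Aurkb, a mitotic kinase, at 11.90 in NHRI-HN1 and 9.25 in M1-2. Pcna and Mki67 differed by 1.34 and 1.68, under the limit, and Rrm1 was the 1 lower member, by 1.29. The list's median level was 11.45 in NHRI-HN1 and 9.50 in M1-2, with 11.57 in NHRI-HN2 and 12.02 in M2-3. M1-2 was thus the line set apart: 13 of the 20 gained members stood 2 or more units lower in M1-2 than in either line of the other tumor, and 0 stood 2 or more higher in NHRI-HN1 than in both.

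Cell cycle inhibitors changed one by one. Cdkn1a (p21), which stops the cycle and is also high in differentiating muscle, was at 14.36 in NHRI-HN1 and 5.83 in M1-2. It was at 13.28 in NHRI-HN2 and 12.94 in M2-3, so its low value belonged to M1-2. Cdkn2a, which encodes p16 and p19Arf, was at 2.31 in NHRI-HN1 and 10.34 in M1-2, and its neighbour Cdkn2b at 4.52 in NHRI-HN1 and 8.02 in M1-2. Mtap, the next gene, was high in both lines, at 15.97 in NHRI-HN1 and 15.20 in M1-2. Cdkn2c was gained by 3.37. Ccnd2, cyclin D2, was at 11.40 in NHRI-HN1 and 16.11 in M1-2. In a list of 23 counted p53 targets that holds Cdkn1a, 3 were gained, 4 were lost and the median was -0.04. Mdm2 differed by -0.04 and Zmat3 by -0.06, Eda2r was gained by 5.52, and Perp and Sfn, which are also keratinocyte genes, were lost.

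Genes of amino acid supply were more often gained than lost. Of 25 counted genes of amino acid transport, serine synthesis and the Atf4 response, 11 were gained and 1 lost, with a median of 1.94. Cth, which makes cysteine from cystathionine, was at 11.09 in NHRI-HN1 and 5.47 in M1-2. Psat1, of serine synthesis, was at 15.50 in NHRI-HN1 and 11.95 in M1-2, and Slc7a5, a carrier of large neutral amino acids, at 14.54 in NHRI-HN1 and 11.50 in M1-2. Asns, asparagine synthetase, was gained by 2.56 and Mthfd2, of mitochondrial folate metabolism, by 3.12. The factor Atf4 differed by 1.01 and Ddit3, its target under stress, by -0.02. For 6 of the 11 gained genes M1-2 was again 2 or more units below both lines of the other tumor.

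Extracellular matrix was exchanged more than added. The collagen list had 6 members gained and 5 lost of 21 counted, and the list of proteoglycans and matricellular proteins 4 gained and 11 lost of 23. Col3a1, a fibrillar collagen of soft tissue, was at 16.55 in NHRI-HN1 and 6.89 in M1-2, while Col1a1 was at 8.48 in NHRI-HN1 and 11.66 in M1-2. Col6a3, a collagen of microfibrils, was gained by 4.75. Among crosslinking enzymes, Loxl3 was at 11.61 in NHRI-HN1 and 5.17 in M1-2, Loxl1 was gained by 2.88, and Lox was at 13.10 in NHRI-HN1 and 17.91 in M1-2. The small proteoglycans Bgn and Dcn were gained by 6.04 and 4.45, and Mgp, an inhibitor of calcification, was at 13.41 in NHRI-HN1 and 5.61 in M1-2.

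The matricellular losses were large. Thbs1 (thrombospondin-1) was at 9.66 in NHRI-HN1 and 17.55 in M1-2, Postn (periostin) at 3.16 in NHRI-HN1 and 10.34 in M1-2, and Tnc (tenascin-C) at 10.19 in NHRI-HN1 and 15.97 in M1-2. These 3 are matrix proteins of wound repair. Efemp1 was at 2.72 in NHRI-HN1 and 12.24 in M1-2. Sparc and Fn1 were among the brightest genes of both arrays and differed by -1.27 and -1.06. The largest loss of all was Timp3, an inhibitor of matrix proteases bound to the matrix, at 3.64 in NHRI-HN1 and 16.57 in M1-2, with 7.32 in NHRI-HN2 and 3.10 in M2-3. Proteases moved by member, with Mmp2 gained by 3.39, the membrane protease Mmp16 gained by 7.28 and Adam12 lost by 7.36.

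Mesenchymal genes were mostly shared by parent and daughter. Of 21 counted, 5 were gained and 3 lost, with a median of 0.87. Vim was at 17.99 in NHRI-HN1 and 17.12 in M1-2, Prrx1 at 15.24 and 15.22, Snai2 (Slug) at 15.09 and 13.90, and Zeb1 at 13.37 and 11.95, in the same order of lines. So Vim and these 3 transcription factors were already high in M1-2. Snai2 was not particular to this pair, since it stood at 16.40 in NHRI-HN2 and 16.27 in M2-3. Those are the lines with all 15 keratinocyte markers at 8 or more. Cdh2 (N-cadherin) was at 12.38 in NHRI-HN1 and 14.28 in M1-2. Twist1, at 7.37 in NHRI-HN1 and 7.35 in M1-2, and Snai1, at 5.38 in NHRI-HN1 and 5.32 in M1-2, were not counted. The 5 gained members were Ddr2, a collagen receptor kinase, by 8.28, Eng, a co-receptor of TGF-beta, by 7.89, Osr1 by 6.55, S100a4 by 4.66 and Tbx15, a developmental factor, by 4.07.

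**Figure D3:**
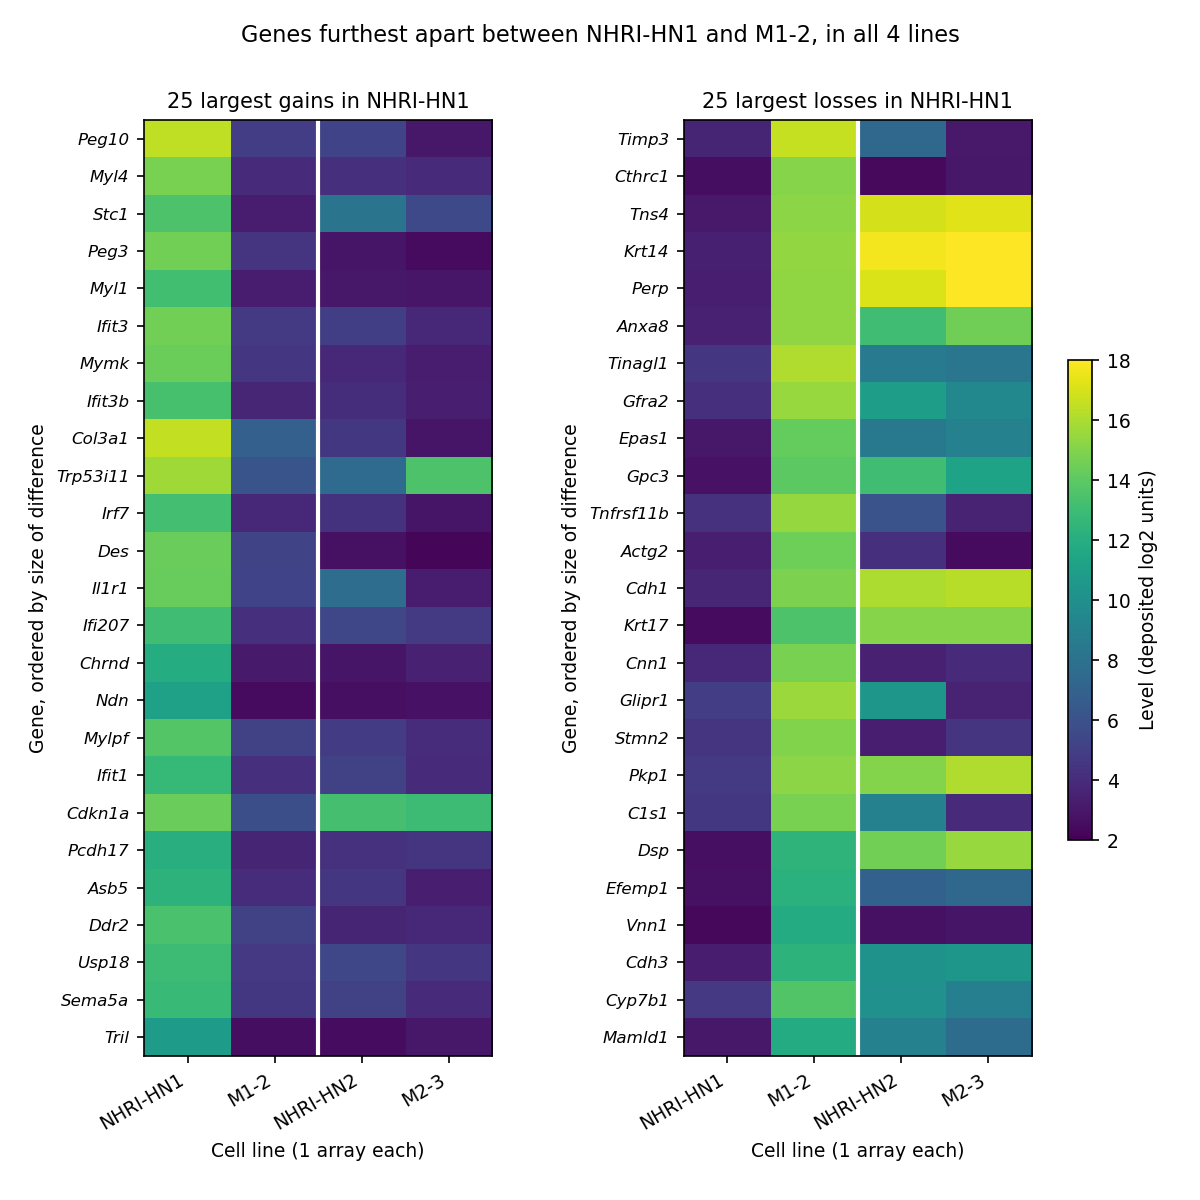
Levels in deposited log2 units (colour) of the 25 counted genes with the largest gain (left panel) and the 25 with the largest loss (right panel), ordered by size, in NHRI-HN1, M1-2, NHRI-HN2 and M2-3, 1 array each. Most gained genes are dark in the 3 other lines, with Cdkn1a and Trp53i11 (13.51 in M2-3) bright elsewhere, and among the lost genes some are bright in the lines of the other tumor (Krt14, Cdh1), some in M1-2 alone (Cthrc1, Cnn1) and others lie between.

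Epithelial genes were lost in most of their counted members, while many others were under 8 in M1-2 already. Of 25 measured keratins, only 3 were counted. The 3 counted keratins were all lost: Krt14, of basal keratinocytes, was at 3.39 in NHRI-HN1 and 15.38 in M1-2, Krt17, of wounded and tumor epithelium, at 2.48 in NHRI-HN1 and 13.53 in M1-2, and Krt18 at 3.21 in NHRI-HN1 and 10.08 in M1-2. Of 22 measured desmosome and hemidesmosome genes, 10 were counted. Of these 10, 7 were lost and 0 gained, with a median of -3.82. Cdh1 (E-cadherin) was at 3.71 in NHRI-HN1 and 14.82 in M1-2, and Cdh3 (P-cadherin) at 3.19 in NHRI-HN1 and 12.36 in M1-2. Perp, Pkp1 and Dsp, all of the desmosome, were lost by 11.97, 10.46 and 9.75. Catenins that work with these cadherins were kept: Ctnna1 was at 13.39 in NHRI-HN1 and 12.19 in M1-2, and Ctnnd1 differed by -0.50. Jup, which serves both junctions, was at 11.32 in NHRI-HN1 and 12.77 in M1-2.

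The counted transcription factors of oral epithelium went with its structural genes. Of 28 measured, only 8 were counted, and the others were under 8 in both lines. Of the 8, 7 were lost and 0 gained, with a median of -5.80. All 7 were 2 or more units lower in NHRI-HN1 than in either line of the other tumor. Sox2, a factor of basal epithelium and of pluripotent cells, was at 3.85 in NHRI-HN1 and 11.90 in M1-2. Foxa1 was at 2.23 in NHRI-HN1 and 10.62 in M1-2, Pitx1 at 4.69 in NHRI-HN1 and 10.89 in M1-2, and Pax9 at 3.65 in NHRI-HN1 and 9.78 in M1-2. Pitx1 and Pax9 mark the oral region in development. Klf4, a factor of keratinocyte differentiation, was at 4.93 in NHRI-HN1 and 10.40 in M1-2, and Klf5 and Tfap2a were lost by 2.35 and 2.57 and stayed above 9 in NHRI-HN1.

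Of 9 counted markers used for stem cells, 5 were lost and 1 gained, with a median difference of -2.0. Their median level was 10.72 in NHRI-HN1 and 11.43 in M1-2. Cd44, the hyaluronan receptor, was at 14.24 in NHRI-HN1 and 17.89 in M1-2. Prom1 (CD133) was not counted, at 3.17 in NHRI-HN1 and 3.62 in M1-2, nor were Nanog, at 3.91 and 4.32, and Pou5f1 (Oct4), at 2.20 and 2.27, in the same order of lines. The gained member was Nes (nestin), an intermediate filament of neural and muscle precursors, at 9.42 in NHRI-HN1 and 4.17 in M1-2. Abcg2, Sox9 and Bmi1 differed by -0.24, -0.71 and 1.03. Cd24a, another surface marker, was at 3.62 in NHRI-HN1 and 11.25 in M1-2.

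Immediate early genes, which mitogens and stress switch on within minutes, were lower in NHRI-HN1. Of 13 counted members of the list with AP-1 factors, 10 were lost, 0 were gained and all 13 were lower, with a median of -3.06. Fosl2 was at 7.29 in NHRI-HN1 and 12.78 in M1-2, Junb at 7.21 in NHRI-HN1 and 10.35 in M1-2, and Myc at 10.65 in NHRI-HN1 and 13.71 in M1-2. Jun, at 10.83 in NHRI-HN1 and 11.26 in M1-2, changed least. NHRI-HN1 was the low line here: 8 of the 10 lost members were 2 or more units below both lines of the other tumor, where Junb was at 13.28 (NHRI-HN2) and 12.23 (M2-3).

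Targets of NF-kB, the factor that tumor necrosis factor activates, were partly lost, with 5 lost and 3 gained of 21 counted and a median of -1.01. The subunit Rel was at 6.67 in NHRI-HN1 and 12.89 in M1-2, and the inhibitor Nfkbia at 8.60 in NHRI-HN1 and 11.73 in M1-2, while Rela, the main subunit, differed by -0.39. Ptgs2, which makes prostaglandins, was at 9.78 in NHRI-HN1 and 15.80 in M1-2. Tnfaip2 and Vcam1 were gained by 2.91 and 2.35. The AP-1 site (TGACTCA or TGAGTCA) was in a promoter of 0 of the 5 lost NF-kB genes and 1 of the 3 lost keratinocyte differentiation genes, beside 5.95% of all genes. That gene was Il1rn, the antagonist of interleukin-1, at 4.44 in NHRI-HN1 and 9.24 in M1-2.

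Outputs of ERK, the kinase downstream of growth factor receptors, moved apart. Of 20 counted, 5 were gained and 3 lost. Etv1 and Etv5, transcription factors that ERK induces, were at 12.33 and 12.34 in NHRI-HN1 and at 5.29 and 9.62 in M1-2. Spry1 and Spry2, feedback inhibitors, were gained by 5.35 and 5.32. These are known targets of fibroblast growth factor signaling. The phosphatase Dusp1 was lost, at 11.28 in NHRI-HN1 and 16.87 in M1-2, and Dusp6, a phosphatase specific to ERK, differed by -1.27. Egfr was not counted, at 6.26 in NHRI-HN1 and 6.38 in M1-2, its ligand relative Nrg1 was lost by 5.96, and Errfi1, which inhibits the receptor, was gained by 3.00.

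Sterol synthesis was lower along most of its length. Of 25 counted genes, 14 were lost and 2 gained, with a median of -2.66. Hsd17b7 was at 9.03 in NHRI-HN1 and 15.09 in M1-2, Ebp at 6.80 in NHRI-HN1 and 12.67 in M1-2, and Dhcr7, the last step to cholesterol, at 9.17 in NHRI-HN1 and 13.68 in M1-2. The early enzyme Hmgcs1 was at 12.68 in NHRI-HN1 and 15.59 in M1-2. Of the regulators, Srebf2 differed by -1.19, under the limit, and Scap by 0.27, and Insig1, which holds this pathway back, was higher by 1.37. The gained members are known to lower cell cholesterol: Abca1, which exports it, was at 10.73 in NHRI-HN1 and 6.16 in M1-2, and Mylip, which degrades the LDL receptor, at 10.24 in NHRI-HN1 and 6.83 in M1-2. Fatty acid genes did not follow, with 2 gained and 1 lost of 22 counted, Fasn at -0.33 and Scd1 at -0.40. For 7 of the 14 lost sterol genes M1-2 was 2 or more units above both lines of the other tumor. All 14 were also lower in NHRI-HN2 than in M2-3, with differences from -1.65 (Hmgcs1) to -0.11 (Mvd), under the limit. A sterol element, searched as TCACNCCAC on both strands, was in a promoter of 1 of the 12 lost genes that have one in the table (8.33%), beside 1.44% of all genes. That gene was Hmgcs1, shown for this reason, at chr13:119690189-119690247 on the plus strand.
Hmgcs1: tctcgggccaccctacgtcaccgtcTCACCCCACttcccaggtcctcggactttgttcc

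Of the growth and patterning pathways, that of TGF-beta and BMP had 8 members lost and 2 gained of 24 counted, with a median of -1.54. The ligands Inhba and Bmp4 were at 7.67 and 5.75 in NHRI-HN1 and at 14.05 and 11.88 in M1-2. Tgfbr2, the receptor that binds TGF-beta, was at 10.75 in NHRI-HN1 and 13.85 in M1-2, and its inhibitor Smad7 at 4.83 in NHRI-HN1 and 8.20 in M1-2. Id3 and Id4, which BMP induces and which block factors of the Myf5 family, were at 4.87 and 3.89 in NHRI-HN1 and at 11.98 and 9.98 in M1-2. Id2, a relative, was gained by 2.47 and Id1 differed by -0.25. In the Wnt list, 6 were lost and 2 gained of 15, led by the receptors Lgr6, at 3.46 in NHRI-HN1 and 10.56 in M1-2, and Fzd6, at 7.18 in NHRI-HN1 and 12.87 in M1-2. Dll1, a Notch ligand, was gained by 5.36 and Lfng, which modifies Notch, was lost by 4.37.

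Guidance and adhesion molecules known from the nervous system were among the most often changed, with 13 gained and 8 lost of 29 counted. Sema5a was at 12.83 in NHRI-HN1 and 4.57 in M1-2, Lrrn1 at 13.43 in NHRI-HN1 and 5.24 in M1-2, and the adhesion molecule Alcam at 13.46 in NHRI-HN1 and 5.55 in M1-2. In the other direction, the receptor Epha3 was at 4.50 in NHRI-HN1 and 12.03 in M1-2, and Sema3f at 4.30 in NHRI-HN1 and 11.50 in M1-2. Secreted signals were exchanged as well. Cxcl12, a chemokine of stromal cells, was at 10.74 in NHRI-HN1 and 4.89 in M1-2, while Cxcl5, which attracts neutrophils, was at 2.08 in NHRI-HN1 and 8.52 in M1-2. Il1r1, the receptor of interleukin-1, was at 14.25 in NHRI-HN1 and 5.23 in M1-2, and Casp1, which matures interleukin-1, at 3.29 in NHRI-HN1 and 11.15 in M1-2. Gas6, the ligand of Axl, was lost by 7.49, while Axl stayed at 15.00 in NHRI-HN1 and 16.19 in M1-2.

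Few genes of core metabolism and translation reached the limit. Of 19 counted genes of glycolysis, 0 were gained or lost, with differences between -1.70 (Slc2a1, the glucose carrier) and 1.48 (Pfkm, the muscle form of phosphofructokinase) and a median of -0.10. Gapdh was at 18.21 in NHRI-HN1 and 18.16 in M1-2. Of 35 counted respiratory chain subunits, 1 was gained (Ndufa10) and 1 lost (Ndufa4), with a median of 0.24. All 34 counted ribosomal protein genes were higher in NHRI-HN1, by 0.05 to 1.67 with a median of 0.63, and 0 reached the limit. The Y-linked genes Uty, Kdm5d and Eif2s3y were present in both lines, with differences between -0.34 and 1.41.

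The lines of the other tumor, which the choice of genes did not use, divided the gained and the lost genes differently. Of the 647 gained genes, 313 (48.4%) were under 8 in both NHRI-HN2 and M2-3 and 288 (44.5%) were at 8 or more in both. Of the 610 lost genes, 138 (22.6%) were under 8 in both and 384 (63.0%) at 8 or more in both. Among all counted genes these shares were 12.3% and 80.9%. Set against both other lines, NHRI-HN1 stood 2 or more units above them for 361 of the gained genes, and M1-2 stood 2 or more below them for 150. Of the lost genes, NHRI-HN1 was 2 or more below both for 231, and M1-2 was 2 or more above both for 211. This sorting reuses the 2 arrays that called the genes and is a description. By it, NHRI-HN1 stood apart for 14 of the 15 gained muscle regulators, 18 of the 19 gained sarcomere genes, 27 of the 30 gained interferon effectors and all 7 lost epithelial factors, and M1-2 for 13 of the 20 gained replication genes.

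Sphere culture was also applied to M2-3, and NHRI-HN2 minus M2-3 shares no array with NHRI-HN1 minus M1-2. In that pair 6991 genes were counted, 212 were gained (3.03%) and 87 were lost (1.24%). The overlaps below concern the 6170 genes counted in both pairs. Over these, 334 were gained and 472 lost in NHRI-HN1, and 186 were gained and 29 lost in NHRI-HN2. Of the 647 genes gained in NHRI-HN1, 334 were counted in that pair, and of these 23 were gained there too (6.89%) and 8 were lost (2.40%). Of the 610 genes lost in NHRI-HN1, 472 were counted in that pair, and of these 59 were gained there (12.5%) and 11 were lost (2.33%). Taken from the other side, 186 of the genes gained in NHRI-HN2 were counted in the first pair, of which the 23 shared gains are 12.4% and the 59 opposite ones 31.7%. Only 29 of the genes lost in NHRI-HN2 were counted there, of which the 11 shared losses are 37.9% and the 8 opposite ones 27.6%. The shared gains included the interferon genes Bst2 (3.03 between NHRI-HN2 and M2-3) and Ifitm3 (3.12) and the collagen processing genes Pcolce (6.80) and Loxl3 (6.58). Genes lost in NHRI-HN1 and gained in NHRI-HN2 included genes of matrix and contraction: Lox differed by 8.94 in that pair, Postn by 7.75, Acta2 by 7.72, Col1a1 by 6.43 and Thbs1 by 5.31. Vim, near level in the first pair, stood at 14.74 in NHRI-HN2 and 6.90 in M2-3. The interferon effector list had 6 of 57 measured members gained in NHRI-HN2 and 0 lost. Members under 8 in both lines of that pair could not be called. The 41 members counted in the first pair had a median level of 6.69 in NHRI-HN2 and 4.62 in M2-3. The list median was thus higher in NHRI-HN2 too, and 6 members passed the limits. The muscle lists had 2 and 1 members gained in NHRI-HN2, and Cdh1 was at 16.06 in NHRI-HN2 and 16.31 in M2-3. Of its epithelial lists, those of factors, keratins, desmosomes and junctions had 1 member lost each and that of keratinocyte differentiation 3 lost and 1 gained.

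**Figure D4:**
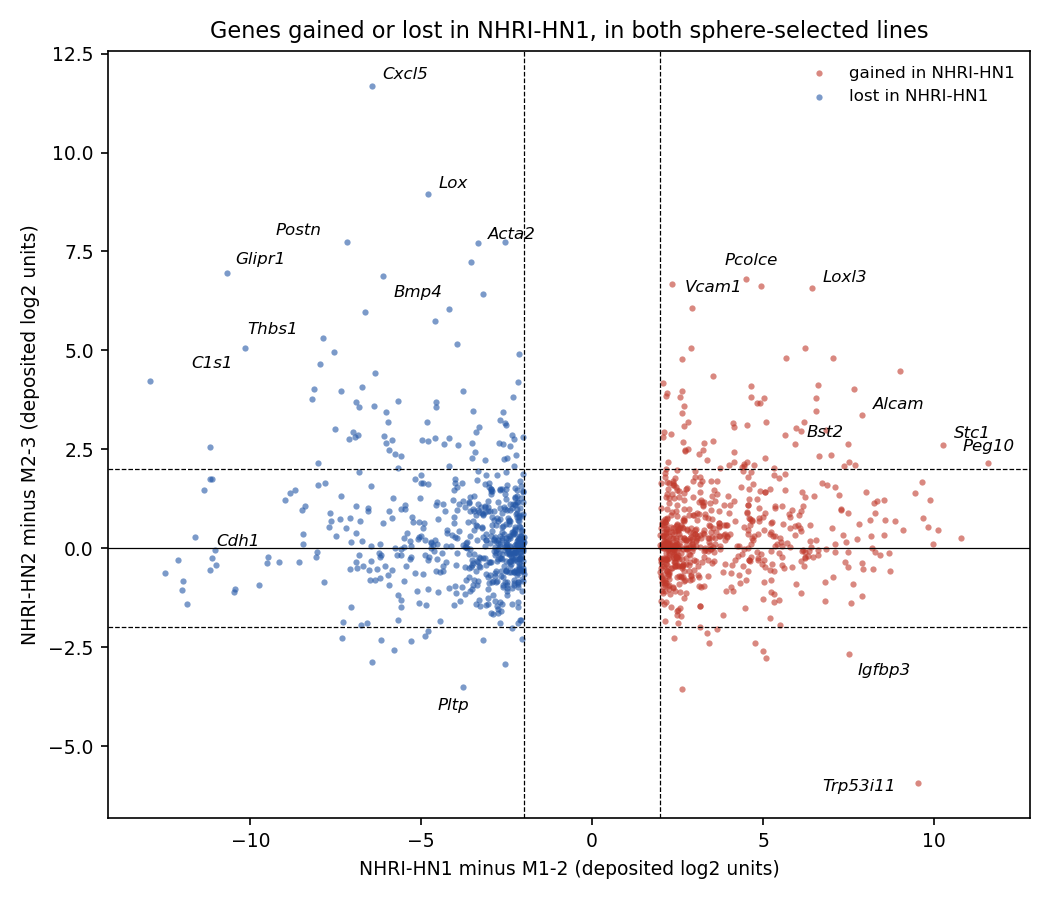
Difference between NHRI-HN2 and M2-3 (vertical axis) against that between NHRI-HN1 and M1-2 (horizontal axis), in deposited log2 units, for the genes gained (red) or lost (blue) in NHRI-HN1, whether or not they were counted in the second pair. Dashed lines mark 2 units either way. Most points lie between the horizontal lines, and the upper left, where 59 genes were lost in NHRI-HN1 and gained in NHRI-HN2, is fuller than the lower left, where 11 were lost in both.

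The gains were not spread evenly over the genome. Genes were placed on chromosomes by their identifiers in RefSeq, after the values had been seen. On chromosome 1, 343 of 449 counted genes (76.4%) were higher in NHRI-HN1, 88 were gained and 25 lost, and the median difference was 0.88. On chromosome 19, 193 of 260 (74.2%) were higher, 42 were gained and 12 lost, and the median was 0.80. The medians of the other 18 chromosomes lay between -0.50 and 0.11. Divided along its length into 4 stretches with about the same number of counted genes, chromosome 1 had medians between 0.66 and 0.99, and chromosome 19 between 0.69 and 0.87. Against the mean of NHRI-HN2 and M2-3, chromosome 1 had a median of 0.88 in NHRI-HN1 and 0.15 in M1-2, and chromosome 19 one of 0.12 in NHRI-HN1 and -0.60 in M1-2. Of all 647 gained genes, 88 lie on chromosome 1 and 42 on chromosome 19. Of the 34 gained muscle genes 9 lie on chromosome 1, Des and Myog among them, and 2 on chromosome 19. Of the 30 gained interferon effectors, 0 and 4 do. That list does not hold the 6 gained interferon-inducible genes of the p200 family, which lie on chromosome 1. Without the genes of both chromosomes, 517 were gained and 573 lost.

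**Figure D5:**
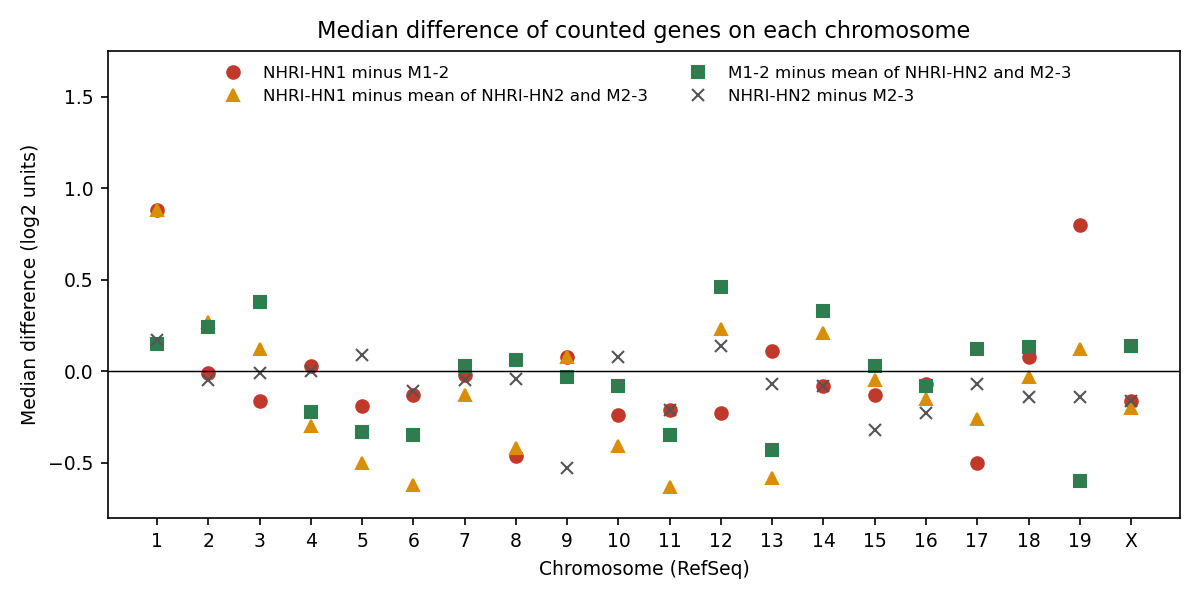
Median difference of the counted genes on each chromosome, in log2 units, for NHRI-HN1 minus M1-2 (circles), for NHRI-HN1 (triangles) and M1-2 (squares) minus the mean of NHRI-HN2 and M2-3, and for NHRI-HN2 minus M2-3 (crosses). Chromosomes 1 and 19 stand apart at 0.88 and 0.80 for the first pair, and all medians of NHRI-HN2 minus M2-3 lie between -0.53 and 0.17.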

How the data were processed

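Each of 4 mouse cell lines was hybridised to 1 Affymetrix Mouse Clariom S array. The authors deposited 1 value per probe set and array, computed with Partek Genomics Suite version 7 per the labels. These deposited values were taken as log2 from their range. How background, scaling and probe summaries were handled is not stated in what was read here. Of 22206 probe sets, 19572 had 1 gene symbol and 2634 were unnamed here. The mean was taken over the probe sets of a gene, which gave 19505 genes. NHRI-HN1 minus M1-2 was computed per gene in Python 3.11.15 with pandas 2.3.3. A gene was counted at 8 or more in either line and called at a difference of 2 units. With 1 array a line no test was run.

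The 45 gene lists and the markers were written by hand and chosen with earlier results of these data known, as was the comparison itself, so the lists are no independent evidence. Genes named are the 25 largest gains, the 25 largest losses, counted list members and genes the study assayed. Promoters came from RefSeq (GRCm38.p6), where 27025 genes have one. No coordinates of probes are printed. Alternatives were the level filter, the size limit, quantile normalization, median centring, a floor at 5, and the highest probe set.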

Additional observations from a re-analysis of the deposited data

Results flagged for a closer look

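Sphere culture was followed by opposite differences in the 2 pairs for 67 genes at 2 or more units each way, and 10 of the named genes reached 4 units in both pairs. Whether the pairs differ was not tested, since each pair is 1 array against 1. Between NHRI-HN2 and M2-3, Cxcl5 differed by 11.69, Lox by 8.94, Postn by 7.75, Glipr1 by 6.96, Bmp4 by 6.87, Ogn by 5.75, Thbs1 by 5.31, C1s1 by 5.07 and Pappa by 4.07. Between NHRI-HN1 and M1-2 the same genes differed by -6.44, -4.81, -7.18, -10.70, -6.13, -4.61, -7.89, -10.15 and -6.73. Trp53i11 was the only one of the 10 in the other direction, with -5.93 between NHRI-HN2 and M2-3 and 9.53 between NHRI-HN1 and M1-2. Outside the named genes, 4 more were as far apart in both pairs: Fhl1 (4.02 between NHRI-HN2 and M2-3, -8.14 between NHRI-HN1 and M1-2), Cdo1 (4.97 and -7.54), Aqp5 (5.97 and -6.65) and Ddah1 (6.04 and -4.20), in the same order of pairs and chosen after their values were seen.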

How the results depend on the processing

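The counts of 647 gained and 610 lost genes followed the limits that defined them. With a level of 10 they were 411 and 406, with a size of 1 unit 1447 and 1502, and with 3 units 352 and 326. With a level of 6 the counts were 817 and 799, and with no filter 886 and 864. Quantile normalization gave 660 and 614, median centring 622 and 619, and the highest probe set 649 and 611. Under these settings each count stayed within 1.5 times. A floor at 5 (647 and 610) could not change a call, since a called gene is at 8 or more in 1 line. Leaving out chromosomes 1 and 19, added after seeing the data, only removed their genes (517 and 573). Quantile normalization kept 637 of the gained and 595 of the lost genes. No named gene changed direction past the limit. Under quantile normalization 4 of 769 named genes fell short of a call and 1 passed it, and under median centring 8 fell short. List counts moved by over 1.5 times only in the lists of ErbB, respiratory chain, prostaglandin and NRF2 genes, by 1 or 2 members. The precision of a difference is limited by 1 array a line, and values near 3 cannot be ordered. No paired analysis was possible because NHRI-HN1 and M1-2 have 1 array each. A fit of both sphere-selected lines against their parents, blocked by tumor, would address another comparison and was not run.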

Other observations

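Families of related genes, most of them in no list, were noticed after their values were seen. The p200 genes, interferon-inducible DNA sensors that lie side by side on chromosome 1, had 6 counted members, all gained. Ifi207 was at 13.08 in NHRI-HN1 and 4.22 in M1-2, Ifi204 at 15.32 and 10.75, and Mndal at 13.88 and 10.18, in the same order of lines, while Aim2 was not counted, at 3.61 in NHRI-HN1 and 3.85 in M1-2. All 4 proteases of complement C1 were lost: C1s1 was at 4.62 in NHRI-HN1 and 14.77 in M1-2, C1s2 at 3.72 in NHRI-HN1 and 9.59 in M1-2, and C1ra and C1rb were lower by 4.58 and 3.80. These genes also lie together, on chromosome 6. C1ra and C1rb are close copies, as are C1s1 and C1s2, and probe sets may not tell copies apart. The same may hold for members of the p200 family.

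Stc1, a secreted regulator of phosphate, was at 13.56 in NHRI-HN1 and 3.28 in M1-2. Among the largest losses without a list were Cthrc1, a secreted collagen-modifying protein, at 2.62 in NHRI-HN1 and 15.12 in M1-2, Gpc3, an embryonic proteoglycan of the cell surface, at 2.77 in NHRI-HN1 and 13.96 in M1-2, and Epas1, a hypoxia-inducible factor, at 3.05 in NHRI-HN1 and 14.24 in M1-2. Of 671 counted probe sets without a gene name, 60 were gained and 56 lost, near the shares of all counted genes (9.20% and 8.67%).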
